A study of Homo sapiens with 8 samples.

Results

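The genes LBH, AKAP12, EMP1, CAV1, CAV2, PTPRH, TMC6 and TMC8 are 8 of the 62649 genes counted in RNA-seq libraries of the colorectal adenocarcinoma lines SW620 and SW480, and they encode membrane proteins, a scaffold and a transcription cofactor. They were chosen by name because their mRNA was higher with caffeine in SW620 by a large factor and was not higher by such a factor in SW480, so their caffeine values are given below as a description without a test, and the choice used no numeric threshold. SW480 was established from a primary colon tumour and SW620 from a later metastasis of the same patient. Both lines carried a fluorescent fusion of the immunoproteasome subunit B8 with mCherry, so that the untreated cells carried it too, and the labels spell the cultures SW620B8-mCherry and SW480-B8mCherry.

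The 4 groups were SW620 with caffeine, untreated SW620, SW480 with caffeine and untreated SW480, with 2 libraries each that the labels call biological replicates. The labels describe caffeine at 30, 60, 100, 250 and 500 µM for 72 h, and at 125 µM for 28 days, for SW620B8-mCherry cells, and do not say which of these exposures the sequenced SW620 or SW480 libraries had. Libraries held between 15760259 and 23269315 reads assigned to genes. All 8 genes were among the 17671 that passed the filter on low counts and were tested, and the smallest count of any of them in a library was 22. Levels are CPM (counts scaled by library total) after TMM normalisation, a scaling that corrects library totals for differences in RNA composition.

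Caveolae are flask-shaped pits of the plasma membrane whose coat is built from caveolins and cavins. CAV1 is the caveolin that forms them outside muscle, and CAV2 is its partner, which relies on CAV1 to reach the cell surface. AKAP12 (gravin) is an A-kinase anchoring protein that holds protein kinases A and C, phosphatases and adrenergic receptors together at the membrane, and caffeine is an adenosine receptor antagonist and a weak inhibitor of the phosphodiesterases that break down cAMP, the activator of protein kinase A. EMP1 is a membrane protein of the PMP22 family found in many epithelia. PTPRH (SAP-1) is a receptor-type tyrosine phosphatase of the gut epithelium. TMC6 and TMC8 (EVER1 and EVER2) are membrane proteins of the endoplasmic reticulum that bind CIB1 and the zinc transporter encoded by SLC30A1, and inherited loss of either causes the skin disorder epidermodysplasia verruciformis. LBH is a transcription cofactor first described in limb bud and heart and a known Wnt target.

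Some of the genes were neighbours in the genome (GRCh38, GENCODE 29) and formed 2 pairs. LBH (ENSG00000213626) spans chr2:30231369-30323730 on the plus strand, AKAP12 (ENSG00000131016) chr6:151239999-151358557 on the plus strand, EMP1 (ENSG00000134531) chr12:13196716-13219939 on the plus strand and PTPRH (ENSG00000080031) chr19:55181248-55209506 on the minus strand. CAV2 (ENSG00000105971, chr7:116287380-116508541) and CAV1 (ENSG00000105974, chr7:116524785-116561184) follow each other on the plus strand with 16243 bases between the gene bodies. TMC6 (ENSG00000141524, chr17:78110458-78132407, minus strand) and TMC8 (ENSG00000167895, chr17:78130770-78142968, plus strand) point away from each other, and their gene bodies overlap by 1638 bases. All 8 are protein-coding genes.

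Promoter windows of 250 bases before the transcription start were read for 7 of the 8 genes from RefSeq (GRCh38.p14), which listed 13 starts for them. The 5 shown here are the start of LBH, the member with the largest response, of EMP1, the one with the window poorest in G and C, and the first listed starts of CAV1, CAV2 and TMC6, which belong to the neighbouring pairs. Capitals mark matches, on either strand, to TGANTCA (the AP-1 motif, N being any base), TGACGTCA (the full cAMP response element), TGACG (its shorter core, which also lies within the full element), GGAATG (TEAD), CACGTG (E-box), GGGCGG (GC box) and, for the core promoter box at which transcription starts are positioned, TATAAA. The motifs were chosen after the sequences had been seen.
LBH (chr2:30231284-30231533, plus strand): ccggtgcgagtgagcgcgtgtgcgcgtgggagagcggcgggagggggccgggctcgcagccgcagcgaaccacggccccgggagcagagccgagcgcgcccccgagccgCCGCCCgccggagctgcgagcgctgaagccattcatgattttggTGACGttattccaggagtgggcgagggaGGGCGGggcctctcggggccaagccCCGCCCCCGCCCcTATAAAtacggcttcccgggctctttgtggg
EMP1 (chr12:13196476-13196725, plus strand): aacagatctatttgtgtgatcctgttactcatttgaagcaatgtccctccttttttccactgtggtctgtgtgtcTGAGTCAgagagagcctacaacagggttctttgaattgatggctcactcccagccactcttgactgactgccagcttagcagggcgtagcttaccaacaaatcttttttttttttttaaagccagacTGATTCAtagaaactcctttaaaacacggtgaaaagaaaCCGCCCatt
CAV1 (chr7:116524759-116525008, plus strand): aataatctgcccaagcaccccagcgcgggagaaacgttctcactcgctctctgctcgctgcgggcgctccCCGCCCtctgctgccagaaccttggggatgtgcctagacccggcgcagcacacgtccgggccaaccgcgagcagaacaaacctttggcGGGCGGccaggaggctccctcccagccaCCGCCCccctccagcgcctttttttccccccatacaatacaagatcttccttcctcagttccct
CAV2 (chr7:116499488-116499737, plus strand): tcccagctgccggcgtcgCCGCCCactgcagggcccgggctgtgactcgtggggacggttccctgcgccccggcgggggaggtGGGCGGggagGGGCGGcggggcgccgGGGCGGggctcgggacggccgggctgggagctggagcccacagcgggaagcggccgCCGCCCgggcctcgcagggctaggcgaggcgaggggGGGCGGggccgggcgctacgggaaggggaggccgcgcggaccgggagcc
TMC6 (chr17:78128756-78129005, minus strand): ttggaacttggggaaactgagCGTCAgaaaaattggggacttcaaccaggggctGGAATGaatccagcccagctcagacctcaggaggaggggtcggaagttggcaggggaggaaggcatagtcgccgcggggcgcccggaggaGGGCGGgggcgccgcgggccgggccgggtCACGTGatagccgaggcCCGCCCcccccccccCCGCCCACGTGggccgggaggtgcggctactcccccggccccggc
The window of EMP1 held 42.4% G and C, against a median of 58.0% over the 35114 windows of the table. The other windows shown held 63.6% (CAV1), 71.6% (TMC6), 72.8% (LBH) and 83.2% (CAV2). Of those not shown, PTPRH held 63.2%, AKAP12 61.2%, 50.0% and 72.8%, and the further starts of CAV1, CAV2 and TMC6 63.2% to 73.2%. Only the window of EMP1 and the second of AKAP12 thus lay below the median.

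EMP1 was the only one of the 7 genes with an AP-1 match, and had 2 of them, which began 175 and 48 bases before the start. Over all windows 6.57% held that motif. LBH had TATAAA 31 bases before the start, which 10.7% of windows held, and the shorter cAMP core 97 bases before it, which 21.2% held. TMC6, the member with the smallest response in SW620, also held that core, 229 and 190 bases before its 2 listed starts. The full cAMP response element was in none of the 13 windows and in 1.65% of all windows. An E-box was in all 3 windows of AKAP12 and in both of TMC6, where the first listed start had 2, at 77 and 40 bases, the second overlapping a GC box, against 6.35% of all windows. GC boxes were in 12 of the 13 windows and in 42.6% of all windows, and the TEAD motif was in 3 of the 13 and in 11.9% of all. The 2 windows of TMC6 overlap, as do the first 2 of CAV1, so that 1 match can count in 2 windows. By gene, GC boxes were in 7, the TEAD motif in 2 and the E-box in 2. These matches describe the letters of the windows only.

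In SW620, all 8 genes were higher in both caffeine libraries than in either control library, by 2.22-fold (TMC6) to 20.8-fold (LBH). All 8 were among the genes called higher by edgeR's quasi-likelihood test in that comparison, where 8.10% of the 17671 tested genes were called higher and 6.25% lower, and the groups of 29.7% of tested genes lay apart in that direction. The choice of the genes used this comparison, and nothing is read from these counts. The median log2 fold change of the 8 was 2.69, beside -0.01 over all tested genes. Counted from the largest log2 fold change, LBH had rank 10, EMP1 rank 25, AKAP12 rank 26, PTPRH rank 53, CAV1 rank 86, CAV2 rank 356, TMC8 rank 404 and TMC6 rank 598, so that the group ran from among the largest responses to moderate ones. In bulk RNA, more cells that express a gene and more RNA per cell cannot be told apart.

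In SW480, none of the 8 was called higher, where 1.67% of tested genes were, and TMC6 and TMC8 were among those called lower, where 1.93% of tested genes were. The choice of the genes used these values too, and nothing is read from the counts. The caffeine libraries lay above both controls for LBH and CAV1 and below both for EMP1, CAV2, PTPRH, TMC6 and TMC8, and for AKAP12 they overlapped. Groups lay apart for 21.5% of tested genes in each direction. The median log2 fold change of the 8 was -0.40, and over all tested genes it was 0.

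**Figure D1:**
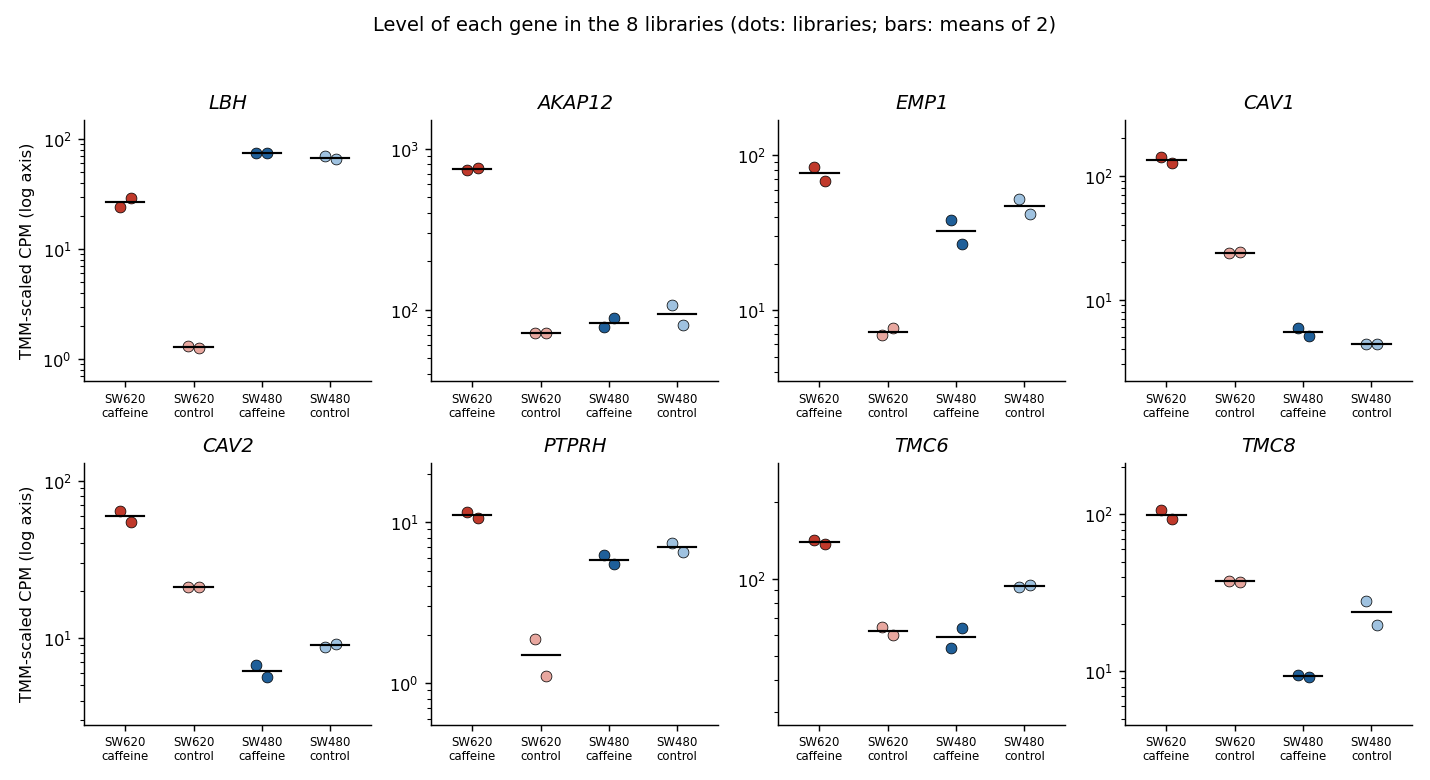
Level of each of the 8 genes in every library, as TMM-scaled CPM on log axes that differ between panels (dots: libraries; bars: means of 2). SW620 caffeine libraries lie above SW620 controls in every panel, and for LBH they stay below both SW480 groups (24.3 and 29.4 CPM, against 65.2 to 74.5 CPM in SW480).

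LBH, the transcription cofactor, was low in untreated SW620 and well expressed in SW480. It had 24.3 and 29.4 CPM in SW620 with caffeine (409 and 584 reads), against 1.32 and 1.25 CPM in untreated SW620 (26 and 25 reads), a log2 fold change of 4.38 ± 0.19 (SE, n = 2 each, as for the SEs below). In SW480 it had 74.5 and 74.0 CPM with caffeine and 69.7 and 65.2 CPM untreated, a log2 fold change of 0.14 ± 0.13. The SW620 caffeine libraries thus held more LBH than their controls and less than any SW480 library. Per kb of exon the mean in SW620 was 5.72 CPM with caffeine and 0.273 CPM untreated, at percentiles 61.09 and 14.01 of the tested genes with a known length.

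AKAP12, the kinase scaffold, differed by 1.31-fold between the untreated lines and was among the more abundant mRNAs of SW620 with caffeine. It had 737.4 and 754.5 CPM in SW620 with caffeine and 71.9 and 71.6 CPM in untreated SW620, a log2 fold change of 3.38 ± 0.15. Its values in SW480 were 77.5 and 88.6 CPM with caffeine and 107.2 and 80.5 CPM untreated, a log2 fold change of -0.17 ± 0.14 that became 0.05 without SW480 control replicate 1. Per kb of exon its mean in SW620 was 85.3 CPM with caffeine, at percentile 97.65, and 8.21 CPM untreated, at percentile 70.33. The 2 SW620 caffeine libraries differed little from each other, and every other library was far below them.

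CAV1 and CAV2, the caveolins, were both higher with caffeine in SW620 and moved differently in SW480. CAV1 had 140.6 and 126.7 CPM in SW620 with caffeine and 23.6 and 24.4 CPM in untreated SW620, a log2 fold change of 2.48 ± 0.13. In SW480 it was low throughout, with 5.92 and 5.07 CPM with caffeine and 4.42 and 4.38 CPM untreated (0.31 ± 0.18). All SW480 libraries lay below both SW620 controls.

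CAV2, its partner, had 64.9 and 54.5 CPM in SW620 with caffeine and 21.2 CPM in each untreated SW620 library, a log2 fold change of 1.49 ± 0.14. In SW480 it had 6.69 and 5.62 CPM with caffeine and 8.77 and 9.16 CPM untreated (-0.55 ± 0.17). The CAV2 caffeine libraries were therefore above their controls in SW620 and below them in SW480. In reads, the ratio of CAV1 to CAV2 was 2.167 and 2.325 in SW620 with caffeine and 1.112 and 1.149 in untreated SW620, and 0.8846 and 0.9015 in SW480 with caffeine and 0.5034 and 0.4777 in untreated SW480. The ratio was thus higher with caffeine in both lines. Per kb of exon CAV1 exceeded CAV2 in SW620 with caffeine (32.7 and 8.62 CPM) and in untreated SW620 (5.88 and 3.06 CPM). It also did so in SW480 with caffeine (1.35 and 0.889 CPM), but not in untreated SW480 (1.08 and 1.29 CPM). These values divide by exon unions of 4082 bases for CAV1 and 6926 bases for CAV2, and their order depends on those lengths. In reads, CAV1 was below CAV2 in every SW480 library.

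**Figure D2:**
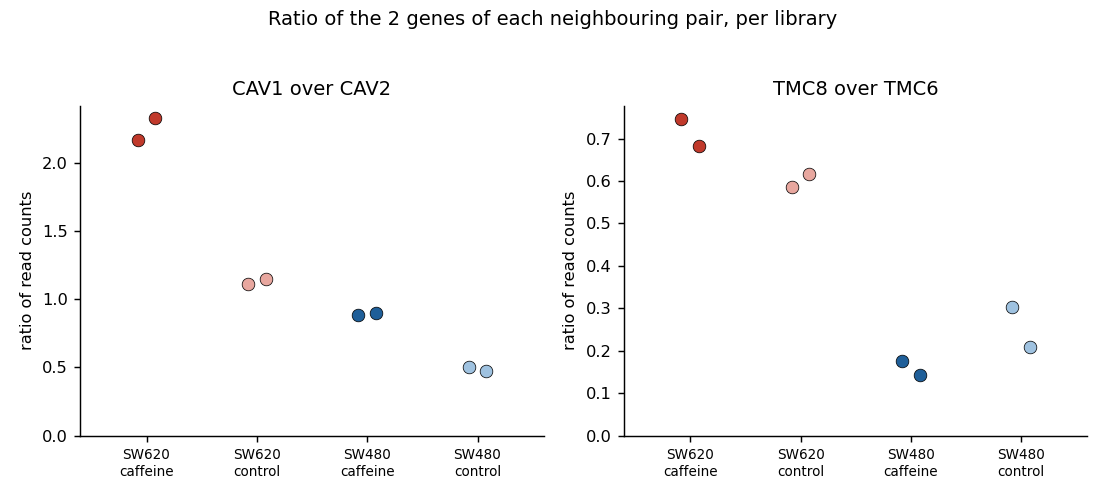
Ratio of read counts within the neighbouring pairs CAV1 over CAV2 and TMC8 over TMC6 in each library (dots), by group, on axes that start at 0. CAV1 over CAV2 is higher with caffeine in both lines (2.167 and 2.325 against 1.112 and 1.149 in SW620), while TMC8 over TMC6 is higher with caffeine in SW620 and lower in SW480.

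EMP1, the PMP22-family membrane protein, was 10.5-fold higher with caffeine in SW620, close to the 10.4-fold of AKAP12. It had 84.5 and 68.4 CPM in SW620 with caffeine and 6.93 and 7.62 CPM in untreated SW620, a log2 fold change of 3.39 ± 0.19. SW480 had 38.2 and 26.7 CPM with caffeine and 52.2 and 41.8 CPM untreated (-0.54 ± 0.17). Untreated SW620 was the lowest of the 4 groups and SW620 with caffeine the highest.

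PTPRH, the gut epithelial phosphatase, was the least abundant of the 8 per kb in SW620 with caffeine. It had 11.6 and 10.7 CPM in SW620 with caffeine (195 and 212 reads) and 1.87 and 1.10 CPM in untreated SW620 (37 and 22 reads), a log2 fold change of 2.90 ± 0.24. The SW480 libraries had 6.24 and 5.45 CPM with caffeine and 7.44 and 6.48 CPM untreated (-0.26 ± 0.21). The untreated SW620 libraries rested on few reads, and the SW620 value ran from 2.58 without control replicate 2 to 3.34 without control replicate 1.

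TMC6 and TMC8, the divergent pair, were higher with caffeine in SW620 and lower with it in SW480. TMC6 had 141.6 and 136.2 CPM in SW620 with caffeine and 64.7 and 60.4 CPM in untreated SW620, a log2 fold change of 1.15 ± 0.13. For SW480 the levels were 53.7 and 64.2 CPM with caffeine and 92.4 and 94.4 CPM untreated (-0.66 ± 0.13). The caffeine libraries of SW480 were thus at about the level of untreated SW620.

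TMC8 had 105.8 and 92.9 CPM in SW620 with caffeine and 37.9 and 37.2 CPM in untreated SW620, a log2 fold change of 1.40 ± 0.15. The level in SW480 was 9.46 and 9.15 CPM with caffeine and 28.0 and 19.8 CPM untreated (-1.36 ± 0.17), and this value lay between -1.61 and -1.09 when 1 library was left out. Reads of TMC8 over those of TMC6 were 0.747 and 0.6824 in SW620 with caffeine and 0.5853 and 0.6158 in untreated SW620, and 0.1763 and 0.1427 in SW480 with caffeine and 0.3032 and 0.2096 in untreated SW480. TMC8 was the member with the largest decrease in SW480, and its groups did not overlap in either line. Groups lay apart in these directions for 29.7% of tested genes in SW620 (higher) and 21.5% in SW480 (lower). The exons of the pair share 231 bases on opposite strands, which is 2.66% of the exon bases of TMC6 and 4.23% of those of TMC8, and TMC6 shares 1342 exon bases (15.5%) on the same strand with the noncoding gene TNRC6C-AS1, which was not analysed here. The strand setting of the counting was not given in the sources used here, so reads from these shared bases cannot be assigned with certainty.

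**Figure D3:**
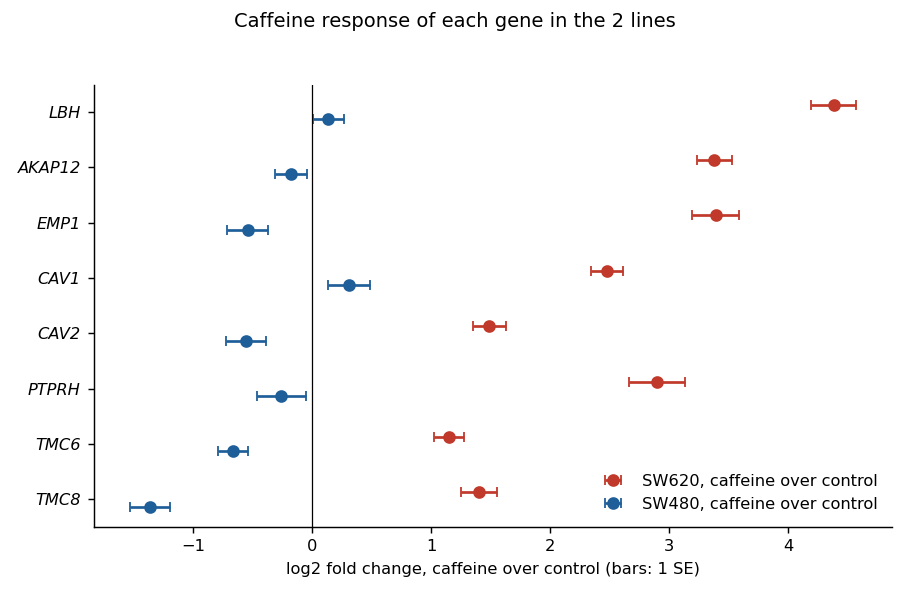
Log2 fold change of caffeine over control for each gene in SW620 (red) and SW480 (blue), with bars of 1 SE from the edgeR fit of all 8 libraries. The SW620 values run from 1.15 (TMC6) to 4.38 (LBH) and the SW480 values from -1.36 (TMC8) to 0.31 (CAV1).

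The untreated lines already differed in these genes, and not in one direction. This comparison was not used to choose the genes, although it shares its control libraries with the caffeine comparisons, and high control values lower a response computed against them. By edgeR's quasi-likelihood test with Benjamini-Hochberg adjustment, CAV1, CAV2 and TMC8 were higher in untreated SW620 than in untreated SW480, and LBH, EMP1, PTPRH, TMC6 and AKAP12 were lower. Of all tested genes, 33.0% were called higher and 32.6% lower, so that most genes differed between these lines, and a call does not set the 8 apart. The median log2 difference of the 8, SW620 over SW480, was -0.48, beside 0.03 over all tested genes.

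LBH had the largest of these differences, 52.3-fold lower in SW620 (log2 -5.71 ± 0.19, adjusted p = 1.25e-13, edgeR). EMP1 was 6.45-fold lower (-2.69 ± 0.19, adjusted p = 2.16e-09, edgeR) and PTPRH 4.67-fold lower (-2.22 ± 0.25, adjusted p = 5.67e-07, edgeR). The SW620 and SW480 control libraries lay apart for all 8 genes, as they did for 42.8% of tested genes in the higher and 40.6% in the lower direction. CAV1 was 5.45-fold higher in SW620 (2.45 ± 0.16, adjusted p = 5.51e-10, edgeR), and CAV2 was 2.37-fold higher (1.24 ± 0.15, adjusted p = 2.07e-06, edgeR).

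The neighbours TMC6 and TMC8 differed in opposite directions between the untreated lines. TMC8 was 1.57-fold higher in SW620 (log2 0.65 ± 0.16, adjusted p = 0.00148, edgeR), a value that was 0.39 without SW480 control replicate 2, and TMC6 was lower (-0.58 ± 0.13, adjusted p = 0.000671, edgeR). AKAP12 was lower by a small amount (-0.39 ± 0.14, adjusted p = 0.0195, edgeR). That call did not hold without SW480 control replicate 1 (-0.18, adjusted p = 0.261, edgeR), nor without SW620 control replicate 1 or 2 (adjusted p = 0.0838 and 0.0933, edgeR).

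With caffeine, 7 of the 8 genes were higher in SW620 than in SW480, and LBH was still lower. The log2 differences, SW620 over SW480, were 4.61 for CAV1, 3.42 for TMC8, 3.29 for CAV2, 3.17 for AKAP12, 1.24 for EMP1, 1.23 for TMC6, 0.94 for PTPRH and -1.46 for LBH, and they are given without a test. The caffeine libraries of the lines did not overlap for any of the 8, and across tested genes 40.7% lay apart in each direction. EMP1, PTPRH, TMC6 and AKAP12 were lower in SW620 when untreated and higher there with caffeine, so that for these genes the order of the lines was turned round. For AKAP12 the untreated difference was small (-0.39), and its call did not hold under every alternative. For CAV1, CAV2 and TMC8 the gap already present in the controls was wider, and for LBH it was narrower.

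**Figure D4:**
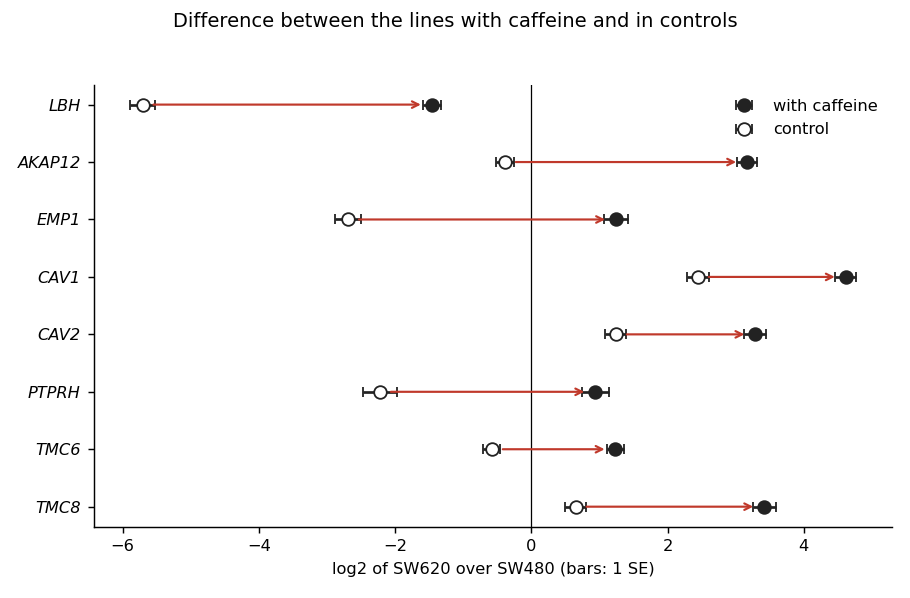
Log2 of SW620 over SW480 for each gene with caffeine (filled circles) and in untreated cells (open circles), with bars of 1 SE and arrows from untreated to caffeine. All arrows point to the right, and those of EMP1, PTPRH, TMC6 and AKAP12 cross 0 (for EMP1, 1.24 with caffeine and -2.69 untreated). The arrow of AKAP12 starts at -0.39, a difference whose call did not hold under every alternative.

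Other caveolar coat genes and their raft and membrane partners formed a list of 12, of which 11 passed the filter and were tested singly. In SW620, 6 of the 11 rose with caffeine (edgeR, adjusted p under 0.05), none fell, and the median log2 fold change was 0.52, beside -0.01 over all genes and calls higher in 8.10% of them. EHD4 and EHD1, ATPases of membrane recycling, EHD2, the ATPase at the neck of caveolae, and CAVIN1, the coat protein without which caveolae do not form, kept their calls under every alternative, and CAVIN3 and CAVIN2, named after their values were seen, did not. In SW480 none of the 11 was called in either direction, with a median of 0.15. CAVIN2 had 5 reads in SW480 with caffeine and 1 untreated, too few to show a response there. This list was drawn up with earlier results of these data known.

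EHD4 had 89.0 and 107 CPM in SW620 with caffeine and 35.5 and 40.6 CPM untreated (log2 fold change 1.36 ± 0.14, adjusted p = 7.89e-06, edgeR). CAVIN1 had 43.3 and 38.7 CPM in SW620 with caffeine and 21.5 and 20.3 CPM untreated (0.97 ± 0.13, adjusted p = 9.62e-05, edgeR). EHD1 had 78.8 and 78.4 CPM in SW620 with caffeine and 49.7 and 43.7 CPM untreated (0.75 ± 0.12, adjusted p = 0.000689, edgeR). The groups of all of these lay apart in SW620, as those of 29.7% of tested genes did in that direction. Those of EHD2 (2.16 ± 0.43, adjusted p = 0.00308, edgeR) also lay apart, at no more than 1.61 CPM. CAVIN3 rose by 0.74 ± 0.16 (adjusted p = 0.00637, edgeR; 0.0636 without SW620 control replicate 2) and CAVIN2 by 0.52 ± 0.17 (adjusted p = 0.0455, edgeR; 0.0551 to 0.265 under the 5 alternatives that ended its call, each of which left out a SW620 library or added a replicate block).

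The response of the list genes differed between the lines for CAVIN1 (SW620 minus SW480 1.27, adjusted p = 0.000372, edgeR), EHD4 (1.21, adjusted p = 0.00127, edgeR) and EHD1 (0.767, adjusted p = 0.0141, edgeR; 0.128 without SW620 control replicate 2). It differed in the other direction for FLOT1, a raft protein named after its values were seen (-0.73, adjusted p = 0.0305, edgeR; 0.0544 to 0.161 under 6 left-out libraries). Across all tested genes the difference was called higher for 4.24% and lower for 2.47%. Unlike CAV1, CAVIN1 was lower in untreated SW620 than in untreated SW480, with 21.5 and 20.3 CPM in SW620 and 123 and 122 CPM in SW480 (log2 -2.55 ± 0.13, adjusted p = 2.88e-11, edgeR). Untreated SW620 thus held less CAVIN1 and more CAV1 than untreated SW480.

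Of 16 A-kinase anchoring proteins, relatives of AKAP12 in function, 13 were tested. In SW620, EZR, PALM2AKAP2 and AKAP13 rose and AKAP5 fell, with a list median of 0.11, and in SW480 none was called (median -0.03). EZR (ezrin), which links the membrane to actin, had 597 and 590 CPM in SW620 with caffeine and 377 and 384 CPM untreated (0.64 ± 0.11, adjusted p = 0.000951, edgeR), and kept its call under every alternative. AKAP5, an anchoring protein of the membrane, had 0.714 and 0.755 CPM in SW620 with caffeine and 1.82 and 1.70 CPM untreated (-1.25 ± 0.34, adjusted p = 0.0220, edgeR; 0.0933 to 0.160 where its call was lost). PALM2AKAP2 (0.53 ± 0.15, adjusted p = 0.0235, edgeR; 0.141 to 0.215 without 1 of 3 SW620 libraries) and AKAP13 (0.53 ± 0.17, adjusted p = 0.0472, edgeR; 0.0539 to 0.481 under 5 alternatives) did not keep their calls, and without SW620 caffeine replicate 2 their log2 fold changes were 0.40 and 0.27. None of these relatives approached the fold of AKAP12, which was chosen for its large response, so nothing is read from this.

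Among 9 genes of protein kinase A and of other partners of AKAP12, all tested, PRKAR1A and PDE4D rose in SW620. PRKAR1A is a regulatory subunit of protein kinase A (0.45 ± 0.12, adjusted p = 0.0225, edgeR), and PDE4D is a cAMP phosphodiesterase (0.54 ± 0.16, adjusted p = 0.0314, edgeR). Both calls were lost without 1 of 3 SW620 libraries, where the adjusted p was 0.158 to 0.250 for PRKAR1A and 0.0946 to 0.387 for PDE4D, whose log2 fold change was 0.30 without SW620 caffeine replicate 2. None of the 9 was called in SW480, and the list medians were 0.10 in SW620 and -0.17 in SW480. The regulatory subunits PRKAR2A and PRKAR2B, named after their values were seen, were not called in SW620. PRKAR2A had -0.29 ± 0.13 (adjusted p = 0.134, edgeR), and PRKAR2B had 4 reads with caffeine and 2 untreated.

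The other families are EMP and PMP22, the LBH domain and TMC, where 0 of 3, 0 of 1 and 1 of 7 tested genes were called higher in SW620, against 8.10% of all tested genes. Of the EMP and PMP22 family, EMP2, EMP3 and PMP22 were tested and none was called with caffeine in either line, with 5 counts of PMP22 in both SW620 caffeine libraries together and 4 in the SW620 controls, against 206 to 257 CPM in SW480 with caffeine and 220 to 243 CPM in untreated SW480. PMP22, a myelin protein of nerves that is also made in many epithelia, was lower in untreated SW620 than in untreated SW480, as EMP1 was (log2 -11.07 ± 0.28, adjusted p = 8.16e-15, edgeR). LBHD1, which shares the LBH domain, was not called in either line. Of 11 genes of the TMC family and its partners, 7 were tested and TMC7 alone rose in SW620.

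TMC7 had 14.7 and 16.1 CPM in SW620 with caffeine and 6.83 and 6.21 CPM untreated (1.24 ± 0.17, adjusted p = 0.000140, edgeR). In SW480 it had 0.965 and 1.02 CPM with caffeine and 1.82 and 1.46 CPM untreated (-0.71, adjusted p = 0.197, edgeR), and its response differed between the lines (1.95, adjusted p = 0.00269, edgeR). The partners CIB1 (0.36 ± 0.14, adjusted p = 0.0964, edgeR) and SLC30A1 (-0.34 ± 0.14, adjusted p = 0.125, edgeR) were not called in SW620.

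Of 19 receptor-type tyrosine phosphatases, 13 were tested, and the list medians were -0.08 in SW620 and -0.23 in SW480. PTPRF, a phosphatase of cell junctions, had 89.2 and 98.5 CPM in SW620 with caffeine and 71.8 and 68.8 CPM untreated (0.42 ± 0.13, adjusted p = 0.0383, edgeR; 0.0573 to 0.282 under 5 alternatives). In SW480 it had 31.3 and 30.6 CPM with caffeine and 56.0 and 47.0 CPM untreated (-0.74 ± 0.13, adjusted p = 0.00810, edgeR; 0.0928 without SW480 caffeine replicate 2). PTPRF thus had the same pair of directions as TMC6 and TMC8, and its difference between the lines (1.15, adjusted p = 0.00125, edgeR) held under every alternative. PTPRE rose in SW620 (0.49 ± 0.14, adjusted p = 0.0285, edgeR; 0.0949 to 0.201 without any 1 SW620 library), PTPRJ fell in SW480 (-0.57 ± 0.15, adjusted p = 0.0484, edgeR; 0.0580 to 0.396 under 6 alternatives), and PTPRN2, named after its values were seen, differed in response between the lines (0.60, adjusted p = 0.0324, edgeR; 0.0510 to 0.166 under 6 alternatives).

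**Figure D5:**
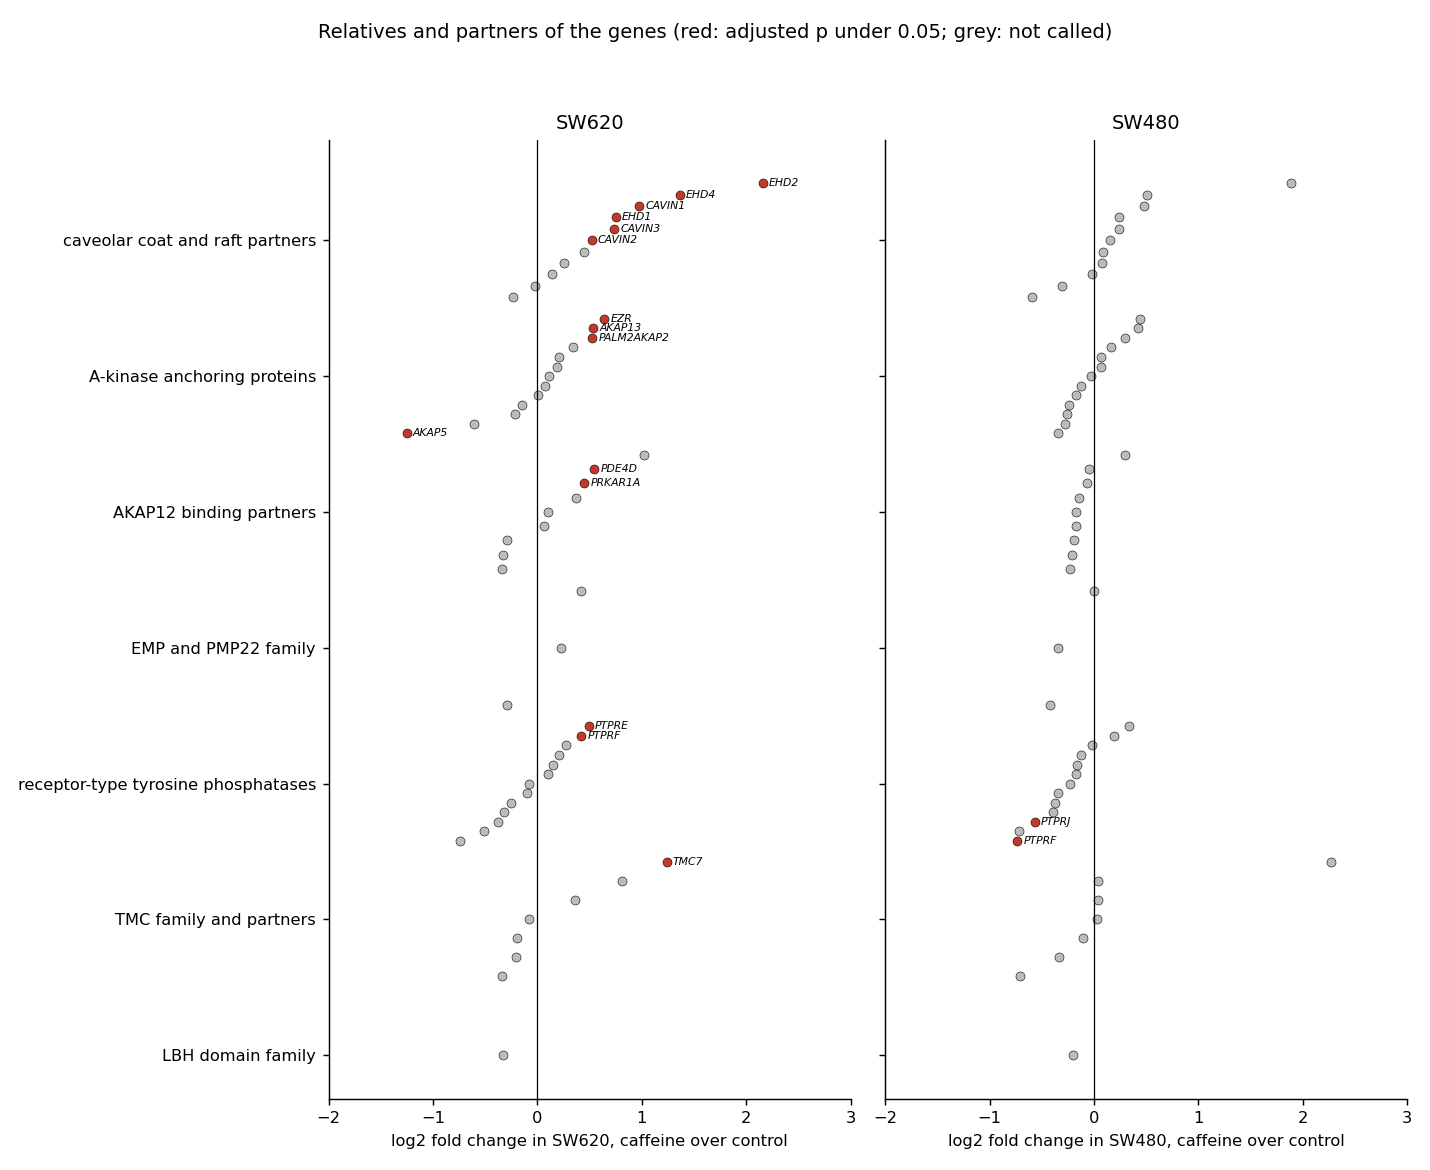
Log2 fold change of caffeine over control of every tested gene in the lists of relatives and partners, in SW620 (left) and SW480 (right), with called genes in red and named. The list of caveolar coat and raft partners has 6 of 11 genes in red in SW620 and 0 in SW480.

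Of the neighbouring genes that could be tested, YPEL5 and LINC01559 rose and TNRC6C fell in SW620, and none was called in SW480. YPEL5, 70.8 kb from LBH, rose in SW620 (0.69 ± 0.13, adjusted p = 0.00225, edgeR; 0.0625 without SW620 control replicate 2), with -0.36 in SW480 (adjusted p = 0.146, edgeR) and a difference between the lines of 1.05 (adjusted p = 0.00298, edgeR). LINC01559, a noncoding gene 151 kb from EMP1, had 73.6 and 78.9 CPM in SW620 with caffeine and 54.2 and 56.8 CPM untreated (0.46 ± 0.13, adjusted p = 0.0233, edgeR; 0.0613 to 0.222 without any 1 SW620 library). TNRC6C, 1.62 kb from TMC6, fell in SW620, the reverse of TMC6 (-0.48 ± 0.15, adjusted p = 0.0393, edgeR; 0.0528 to 0.318 under 4 alternatives). ZBTB2, 5.56 kb from AKAP12, was not called (0.28, adjusted p = 0.237, edgeR), nor were LCLAT1, MTHFD1L, FAM234B and C17orf99 in either line. The neighbours of PTPRH and the CAV2 and CAV1 pair were at counts too low to be tested.

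The genes whose log2 CPM ran most like each of the 8 were sought among 12457 genes over the 8 libraries, which share 4 group means, so that the correlations are descriptions of these groups. They were TRIB1 (r = 0.998) and RIMKLA (0.996) for LBH, ITGA5 (0.992) and GPAT3 (0.987) for AKAP12, BHLHE40 (0.996) and ENO2 (0.989) for EMP1, and P4HB (0.995) for CAV1. For CAV2 they were NFIL3 (0.999) and WDR45B (0.996), for PTPRH ENO2 (0.991) and ATP8B3 (0.987), for TMC6 RHBDF1 (0.987) and HDAC5 (0.977), and for TMC8 PEAR1 and LINC02210 (0.991 each). ENO2 was in the list of both EMP1 and PTPRH.

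The libraries carried the markers of colon epithelial cells, whose CPM summed to 12940 to 14346 in SW620 with caffeine, 10714 to 10778 in untreated SW620, 6563 to 6900 in SW480 with caffeine and 4624 to 6015 in untreated SW480. Of the 10 markers, KRT19 (1.05) and CDH1 (0.97) rose and CDX2 (-0.65) and CDH17 fell with caffeine in SW620 (log2 fold changes, edgeR), and none was called in SW480. LGALS4 and CEACAM5 were close to absent in both lines, with at most 49 reads in any group. CDH1 and CDH17 were close to absent in SW480 only, where CDH1 had 11 reads with caffeine and 27 untreated, against 14039 reads in SW620 with caffeine and 7762 in untreated SW620. Endothelial markers summed to 15.5 to 16.1 CPM in SW620 with caffeine, 9.72 to 9.82 CPM in untreated SW620 and at most 2.33 CPM in SW480, and fibroblast markers to 45.9 to 48.6 CPM in SW620 with caffeine, 37.8 to 40.2 CPM in untreated SW620 and at most 7.66 CPM in SW480. Leukocyte markers summed to at most 5.99 CPM in any library. COL3A1, POSTN and ERG had no read, and PTPRC and KDR 1 each. CSF1R, CD14 and CD3E, named after their values were seen, did have reads. CSF1R had 135 reads in SW620 with caffeine and 87 in untreated SW620. In SW480 with caffeine and untreated, CD14 had 43 and 68 reads and CD3E 21 and 16. Most of the fibroblast sum in SW620 came from LUM, at 30.7 ± 2.32 CPM with caffeine and 31.8 ± 2.24 CPM untreated (SD, n = 2 each). CAV1 is abundant in endothelium and fibroblasts. Among endothelial markers that were not tested, CDH5 had 6 reads in SW620 with caffeine and 11 untreated, TEK 0 and 2, and CLDN5 15 and 6. The untested fibroblast markers COL1A2, DCN, PDGFRA, FAP and THY1 had at most 2 reads in either SW620 group. Of the 10 fibroblast markers 3 were tested and 1 rose in SW620 with caffeine, and of the 7 endothelial markers 2 were tested and both rose, namely COL1A1 (1.30, adjusted p = 0.000193, edgeR), PECAM1 (0.67, adjusted p = 0.0391, edgeR) and VWF (0.79, adjusted p = 0.0261, edgeR). The endothelial pair lost its calls without any 1 of the SW620 libraries, while the log2 fold changes stayed between 0.66 and 0.70 for PECAM1 and between 0.73 and 0.85 for VWF. Their part in the results was not tested. Mitochondrial genes took 1.63% of assigned reads in SW480 caffeine replicate 2 and 4.38% to 6.16% elsewhere, and without that library the SW480 log2 fold changes were -0.82 for TMC6, -1.36 for TMC8 and -0.32 for EMP1.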

How the data were processed

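Poly-A RNA was sequenced as 75-bp single-end reads from directional libraries (NEBNext Ultra II) with RNA integrity numbers of at least 8, per the labels' protocols. The authors deposited counts, that is whole-number reads per Ensembl gene and library, made with Trim Galore, STAR 2.7.3a and featureCounts 2.0.5 on hg38, per the submitters' processing notes. The sources used here do not give the annotation release, the strand setting or the handling of reads that match several places. Every file's 12 assignment lines were left out, and those for reads not assigned to a gene held 26.1% to 31.5% of reads.

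Of 35897 genes with any count, 17671 passed filterByExpr of edgeR 4.0.16 (R 4.3.3). One robust quasi-likelihood fit with TMM scaling held all 8 libraries and 4 group means, so that the groups share 1 estimate of spread. F tests were adjusted by Benjamini-Hochberg over the tested genes (threshold 0.05). The comparisons were caffeine against control in each line, the difference of these responses (SW620 minus SW480), and SW620 against SW480 without and with caffeine. For the members, p-values are given only for the untreated comparison, and their calls in the caffeine comparisons, which the choice of genes used, are counted as a description. Where nothing says that replicates came from separate cultures, p-values measure only the spread between these samples.

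The members, gene lists and tests were chosen with earlier results of these data known. Named were all members, per list up to 4 called genes in SW620 and 2 in SW480 by adjusted p, the nearest genes on either side with at least 10 counts, and the 2 genes most correlated with each member (Pearson's r of log2 CPM, prior count 2, mean log2 CPM of at least 1). Genes outside this rule are said to be, and the result of 1 gene under it is not reported here. Levels per kb used exon unions of GENCODE 29. Alternatives were DESeq2 size factors, no filter, limma-voom (limma 3.58.1), DESeq2 1.42.0 with its Wald test, a fit of the compared libraries only, a replicate block and each library left out in turn.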

Additional observations from a re-analysis of the deposited data

Results flagged for a closer look

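The caffeine libraries lay above the controls in SW620 and below them in SW480 for EMP1, CAV2, PTPRH, TMC6 and TMC8. Their responses, SW620 minus SW480 on the log2 scale, differed by 3.93, 2.05, 3.16, 1.81 and 2.77 in that order, and these differences were not tested because the genes had been chosen for them. Taken singly, the groups of 29.7% of tested genes lay apart in the higher direction in SW620. In SW480 those of 21.5% lay apart in the lower direction.

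Among the relatives and partners, the test of the difference itself passed the threshold (edgeR's quasi-likelihood test, adjusted over all tested genes, 2 libraries a group). The difference was 1.27 for CAVIN1, 1.21 for EHD4 and 0.767 for EHD1, and -0.734 for FLOT1, a raft protein with a log2 fold change of -0.23 in SW620 and 0.50 in SW480 (adjusted p = 0.296 and 0.0520, edgeR, neither called). It was 0.578 for EZR, 0.808 for PALM2AKAP2 and 0.624 for PRKAR1A. It was 1.15 for PTPRF, 0.596 for PTPRN2 and 1.95 for TMC7. The neighbour of LBH, YPEL5, differed by 1.05, and the cell type markers CDH1 and VWF by 2.46 and 1.75, where CDH1 had 11 reads in SW480 with caffeine and 27 in untreated SW480. The calls of CAVIN1, EHD4, PTPRF, TMC7, YPEL5 and CDH1 were kept under every alternative, and the others were lost under at least 1.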

How the results depend on the processing

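The number of genes called in SW620 was 2537 and in SW480 636, and the difference of responses was called for 1185. With each library left out in turn these counts ran from 801 to 3245 in SW620, from 56 to 1421 in SW480 and from 451 to 2188 for the difference, where the SW480 counts of 56 and 1141 left out replicates 2 and 1 of its caffeine group, those of 210 and 1421 replicates 1 and 2 of its controls, and the SW620 counts without any 1 of its own 4 libraries were 801 to 1416. The count for the difference was 451 and 489 without SW620 control replicates 2 and 1, 612 and 696 when replicate 2 of the SW620 or of the SW480 caffeine group was left out, and 2188 when replicate 2 of the SW480 controls was. The SW620 count was 4617 in a fit of the compared libraries only, and the SW480 count 1073 without a filter on low counts, where more genes were tested. The other causes were not tested. Against 11591 genes called between the untreated lines, the counts without 1 library ran from 9789 to 12043, and against 11722 with caffeine from 10288 to 12374.

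Among the members, the 8 SW620 log2 fold changes kept their sign under all 14 alternatives, and so did 7 of the SW480 ones, the exception being AKAP12 (0.05 without SW480 control replicate 1). The calls between the untreated lines held under all of them for every member except AKAP12. Of 40 calls of list genes and neighbours, 17 held under every alternative and 23 did not. The labels tie no replicate number to a batch or day. Deviations of same-numbered libraries from their group means correlated at 0.0134 in SW620, 0.0265 in SW480 and 0.0105 between the untreated lines. The value was 0.0160 between the caffeine groups, -0.0157 between untreated SW620 and SW480 with caffeine, and -0.189 between SW620 with caffeine and untreated SW480. A fit with the replicate number as a block called 2249 genes in SW620, 590 in SW480, 1087 for the difference, 11397 between the untreated lines and 11477 with caffeine. With 25 and 26 reads of LBH and 22 and 37 of PTPRH in the SW620 controls, counting error limits the precision of those responses.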
